A study of Mus musculus with 11 samples.

Results

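Delta cells and PP cells are the rarer endocrine cells of the pancreatic islet, and 6 of their genes were followed here through all 11 islet RNA libraries of a study of repeated pregnancy. The genes were *Sst*, *Hhex*, *Rbp4* and *Ghsr* for delta cells and *Ppy* and *Pyy* for PP cells. They were found by their symbol among the 55536 genes of each count table, and each symbol matched 1 gene. All 6 passed the filter on low counts in every comparison.

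Delta cells release somatostatin, which acts on neighbouring alpha and beta cells through receptors coupled to inhibitory G proteins and lowers the release of glucagon and insulin. PP cells release pancreatic polypeptide, a relative of peptide YY and neuropeptide Y that acts on the vagus nerve and on the gut. Peptide YY is also made in part of the alpha cells and in the gut, so that *Pyy* is not a measure of PP cells alone. *Hhex* encodes a homeobox factor needed to keep delta cells in their state, *Rbp4* encodes the carrier of retinol in blood and marks delta cells within the mouse islet, and *Ghsr* encodes the ghrelin receptor, through which ghrelin stimulates delta cells.

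The islets came from female C57BL/6J mice with no engineered allele. Mice were 9 weeks old at the start and either had 3 consecutive pregnancies and were studied 3 weeks after the last delivery (multipara) or stayed virgin as age-matched controls. Before the islets were isolated, 3 virgin and 4 multipara libraries had received S-961, a peptide that blocks the insulin receptor, at 100 nmol/kg by intraperitoneal injection 2 times a day for 3 days, and 2 virgin and 2 multipara libraries had no treatment. The untreated groups are not described as having received a vehicle injection. The S-961 libraries are given by the study as mice. Nothing in the sources used here says so of the untreated libraries, and p-values involving them measure the spread between these samples, which may be technical. The study asked whether repeated pregnancy alters the islet and its answer to a raised demand for insulin.

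Total counts ran from 22028484 to 32234140 per library with a median of 29866486. Levels below are CPM, the counts of a gene for every 1e+06 counts of its library, after TMM scaling over all 11 libraries, which limits the weight of very abundant genes. *Lrrc55*, a gene known to rise in islets during pregnancy, was at 22.8 and 24.9 CPM in the libraries labelled multipara untreated and at 0.727 and 0.847 CPM in those labelled virgin untreated. With S-961 the order was the other way, with 5.34 to 7.54 CPM in the libraries labelled virgin and 0.320 to 4.43 CPM in those labelled multipara. The highest of the latter, nearest to the libraries labelled virgin, was multipara S-961 replicate 4. The proliferation gene *Mki67* was at 43.5 to 93.9 CPM in multipara S-961 replicates 1, 2 and 3, but at 3.93 CPM in replicate 4, inside the range of the virgin S-961 libraries (3.04 to 13.9 CPM). The virgin untreated libraries were at 3.51 and 6.54 CPM. The macrophage gene *Lyz2* was at 508 CPM in multipara untreated replicate 1 and at 12.9 to 56.7 CPM elsewhere. The order of *Lrrc55* between the parity labels was thus opposite with and without S-961, and it was not settled here whether the parity labels of the treated libraries are right. Every direction that rests on parity among treated libraries, that of *Mki67* included, is a direction between libraries as labelled.

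The somatostatin coding sequence is shown because *Sst* gave most of the delta cell signal. In GENCODE release M21 for genome build GRCm38, *Sst* (ENSMUSG00000004366) lies at chr16:23889573-23890958 on the minus strand and has 2 exons. Its last 28 codons (codons 89 to 116, exon 2, chr16:23889732-23889815) encode somatostatin-28, and the capitals mark the last 14 codons, which encode somatostatin-14.

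Sst codons 89 to 116: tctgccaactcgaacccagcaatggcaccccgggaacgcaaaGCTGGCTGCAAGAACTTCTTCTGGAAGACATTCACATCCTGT

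The promoter of *Sst* holds the cAMP response element from which the transcription factor CREB is known. The stretch from 60 to 31 bases before the RefSeq start (GRCm38.p6, chr16:23890875-23890904, minus strand) is shown with the palindrome TGACGTCA in capitals, at 48 to 41 bases before that start. The GENCODE start lies 114 bases further upstream. Among 32851 RefSeq promoters, 508 (1.55%) held these letters in the 250 bases before the start on either strand, and of the 6 genes only *Sst* did.

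Sst promoter, -60 to -31: cgcctccttggcTGACGTCAgagagagagt

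*Ppy* (ENSMUSG00000017316, chr11:102099930-102101319) and *Pyy* (ENSMUSG00000017311, chr11:102106676-102107832) are neighbours on the minus strand of chromosome 11, 5.36 kb apart. The stretches of 36 codons that matched best are shown because reads could be shared only where the genes are alike. They encode most of the folded hormone of each gene and the cleavage site after it, and run from exon 2 into exon 3, so that each span below also contains an intron. Capitals mark the bases that are identical, 62 of 108 (57.4%).

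Ppy codons 33 to 68, chr11:102100271-102100615: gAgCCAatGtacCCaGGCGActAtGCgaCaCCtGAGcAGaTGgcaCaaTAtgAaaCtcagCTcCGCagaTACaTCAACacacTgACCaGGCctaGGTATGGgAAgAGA
Pyy codons 32 to 67, chr11:102107044-102107259: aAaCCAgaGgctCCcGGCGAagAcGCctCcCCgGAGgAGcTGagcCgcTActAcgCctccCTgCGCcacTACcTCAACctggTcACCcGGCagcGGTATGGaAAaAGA

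The longest identical run in this stretch was 7 bases, and in the whole principal transcripts it was 10 bases. All 66 deposited values of the 6 genes were whole numbers, that is, none showed a read divided between genes. *Hhex* (ENSMUSG00000024986, chr19:37434810-37440731, plus strand) and *Rbp4* (ENSMUSG00000024990, chr19:38116629-38125281, minus strand) share chromosome 19 at a distance of 676 kb, and *Ghsr* (ENSMUSG00000051136, chr3:27371351-27378010, plus strand) lies on chromosome 3.

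Per kilobase of the principal transcript, the hormone genes were far above the other members. In the virgin untreated libraries, *Ppy* was at 13924 ± 3004 CPM per kb (SD, n = 2), *Sst* at 7748 ± 963 and *Pyy* at 4290 ± 343. The other delta cell genes were at 258 ± 8.50 (*Rbp4*), 11.2 ± 0.0142 (*Hhex*) and 0.394 ± 0.00425 CPM per kb (*Ghsr*), in the same libraries and on the same scale. The same order of the 6 means held in the other 3 groups. With S-961 the first positions were no longer apart. *Ppy* was at 3094 ± 684 and *Sst* at 2962 ± 641 CPM per kb in the virgin libraries (SD, n = 3), and their library values overlapped. In the multipara S-961 libraries *Ppy* was at 4458 ± 1116, *Sst* at 3558 ± 890 and *Pyy* at 2174 ± 432 CPM per kb (SD, n = 4), and each of these overlapped its neighbour in the order.

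With S-961, 5 of the 6 genes were lower than in untreated islets and *Ghsr* was not. The decrease was largest for the hormone of PP cells, with *Ppy* at 3.78-fold lower CPM when the effects in virgin and multipara were averaged. *Rbp4* was 2.36-fold, *Pyy* 2.09-fold, *Sst* 1.92-fold and *Hhex* 1.62-fold lower, whereas *Ghsr* was 1.65-fold higher. All 6 passed an adjusted p-value of 0.05 in edgeR's quasi-likelihood test across all genes. Most genes of the table passed as well, so that 52.1% of the 17996 genes tested were called (26.1% higher and 25.9% lower), and the 6 of 6 is read against this background. Without overlap between all treated and all untreated libraries, 4 members were lower, where 36.4% of all genes did not overlap and 19.1% were lower without overlap.

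For *Ppy*, the untreated libraries were at 8024 and 5900 CPM in virgin and at 7108 and 7070 CPM in multipara. With S-961 it was at 1152, 1747 and 1742 CPM in virgin replicates 1, 2 and 3, and at 2367, 2704, 2424 and 1422 CPM in multipara replicates 1 to 4. Every S-961 library was below every untreated library, and the highest treated and the lowest untreated library were far apart. The averaged log2 fold change was -1.92 (SE 0.19, adjusted p = 2.11e-05), with -2.17 (SE 0.28, adjusted p = 0.000379) in virgin and -1.67 (SE 0.25, adjusted p = 0.000801) in multipara.

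*Pyy* was at 2516 and 2246 CPM in the virgin and at 1839 and 1994 CPM in the multipara untreated libraries. After S-961 the values were 776, 856 and 975 CPM in virgin and 1217, 1542, 1028 and 1039 CPM in multipara. Again no S-961 library reached an untreated one, although multipara S-961 replicate 2 came close to multipara untreated replicate 1. *Pyy* fell by 1.06 on the log2 scale on average (SE 0.13, adjusted p = 8.56e-05) and by 1.45 in virgin (SE 0.19, adjusted p = 0.000444). In multipara the log2 fold change was -0.67 (SE 0.18, adjusted p = 0.0154), and this call was lost in 8 of 15 alternative fits.

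*Sst* was at 5096 and 6077 CPM in virgin and at 3295 and 3930 CPM in multipara without treatment. With S-961 it was at 1868, 1869 and 2669 CPM in virgin and at 2760, 3371, 2222 and 1909 CPM in multipara. In virgin all S-961 libraries lay below both untreated ones, while in multipara replicate 2 with S-961 lay above replicate 1 without it. *Sst* fell by 1.39 on the log2 scale in virgin (SE 0.25, adjusted p = 0.00197) and by 0.94 on average (SE 0.17, adjusted p = 0.000980). In multipara the log2 fold change was -0.49 with a 95% interval of -1.02 to 0.03 (adjusted p = 0.123), and no change was shown.

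*Rbp4*, the retinol carrier, was at 237 and 248 CPM in virgin and at 136 and 151 CPM in multipara without treatment. The S-961 libraries were at 66.2, 65.5 and 84.2 CPM in virgin and at 87.4, 106, 78.0 and 76.1 CPM in multipara. They lay below all untreated libraries. The log2 fold change was -1.75 in virgin (SE 0.17, adjusted p = 0.000119), -0.73 in multipara (SE 0.16, adjusted p = 0.00484) and -1.24 on average (SE 0.11, adjusted p = 1.50e-05).

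*Hhex* was at 20.2 and 20.3 CPM in virgin and at 19.1 and 17.5 CPM in multipara without treatment. It was at 8.87, 10.9 and 10.5 CPM in virgin and at 16.9, 16.0, 12.8 and 10.1 CPM in multipara with S-961. All S-961 values lay below the untreated ones, with multipara S-961 replicates 1 and 2 nearest to them. *Hhex* fell by 1.01 on the log2 scale in virgin (SE 0.20, adjusted p = 0.00342) and by 0.70 on average (SE 0.14, adjusted p = 0.00172), and its log2 fold change in multipara was -0.39 with a 95% interval of -0.82 to 0.04 (adjusted p = 0.133).

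*Ghsr*, the ghrelin receptor, was near the lower end of what these libraries resolved, with 19 to 125 counts per library. It was at 1.76 and 1.73 CPM in virgin and at 0.893 and 1.20 CPM in multipara without treatment, and with S-961 at 2.29, 2.23 and 1.13 CPM in virgin and at 2.85, 2.27, 3.22 and 2.16 CPM in multipara. Virgin S-961 replicate 3 lay below both virgin untreated libraries, whereas all 4 multipara S-961 libraries lay above both multipara untreated ones. The log2 fold change was 0.11 in virgin (SE 0.37, adjusted p = 0.839), 1.33 in multipara (SE 0.38, adjusted p = 0.0180) and 0.72 on average (SE 0.26, adjusted p = 0.0384). The averaged call was lost in 11 of 19 alternative fits, and the call in multipara was lost without multipara untreated replicate 1 (log2 fold change 1.13, adjusted p = 0.134).

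**Figure D1:**
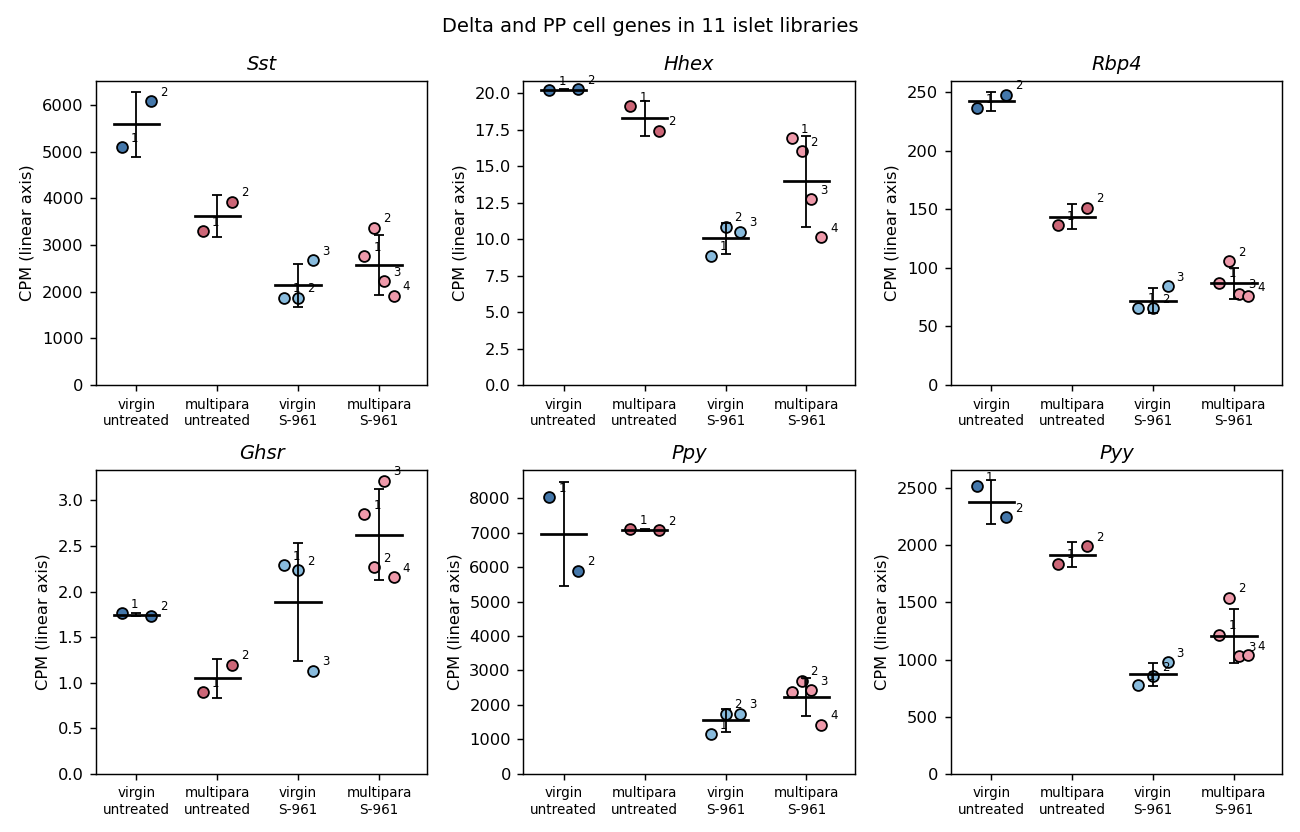
Level of each gene in every library, as CPM on linear axes that start at 0, for the 4 groups. Points are libraries with their replicate number, horizontal lines are means and error bars are SD. For *Ppy*, *Pyy*, *Rbp4* and *Hhex* the 7 S-961 libraries lie below the 4 untreated libraries, whereas *Ghsr* shows no such step.

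By group, 5 members were called in virgin, all lower, where 36.5% of all genes were called, 17.6% lower and 18.8% higher. The same 5 did not overlap, beside 68.3% of all genes (35.5% lower). In multipara 4 were called, 3 lower and 1 higher, where 37.6% of all genes were called, 19.4% lower and 18.2% higher. These 4 and *Hhex* did not overlap there, beside 49.0% of all genes (24.5% in each direction). Both comparisons, and the average, come from 1 fit, and the untreated libraries they use are few. Without multipara S-961 replicate 4, the log2 fold changes in the libraries labelled multipara were -1.51 for *Ppy*, -0.67 for *Rbp4*, -0.60 for *Pyy* and 1.41 for *Ghsr*, all still called, and -0.38 for *Sst* and -0.26 for *Hhex*. Without multipara untreated replicate 1 they were -1.66 for *Ppy* and -0.80 for *Rbp4*, both called, and -0.72 for *Pyy* (adjusted p = 0.0593), -0.61 for *Sst* and -0.32 for *Hhex*, which were not. The share of called genes that were higher was 51.7% in virgin and 48.3% in multipara with TMM scaling, and 83.4% and 85.7% when libraries were scaled by their total counts. *Ins1* and *Ins2* together held 35.3% to 41.4% of the counts of an untreated library, against 13.2% to 20.7% in a treated one. Total count scaling raised the median log2 fold change of all genes to 0.43 in virgin, 0.61 in multipara and 0.51 on average. On this scale the averaged log2 fold changes were -1.40 for *Ppy*, -0.72 for *Rbp4*, -0.54 for *Pyy* and -0.42 for *Sst*, all still called, and 1.26 for *Ghsr*. *Hhex* was at -0.18 and was no longer called (adjusted p = 0.317), and in multipara *Sst* and *Hhex* turned to 0.0857 and 0.18, both still under the all-gene shift.

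Acinar and alpha cell markers moved with the treatment. All 11 acinar markers listed were called higher with S-961 in the averaged comparison. Their summed level was 98.0 to 152 CPM in the untreated libraries, 1550 to 5690 CPM in virgin S-961 and 3743 to 10059 CPM in multipara S-961, and *Ptf1a* was at 0 in 1 library of each untreated group. With the mean acinar level as a covariate, none of the 6 genes was called in any comparison and 2 genes of the whole table were called in the averaged one. The acinar level and the treatment separated the same libraries and cannot be told apart in this fit. Of 4 alpha cell markers, 3 were called lower and none higher in the averaged comparison, with glucagon (*Gcg*) at 12489 to 21627 CPM with S-961 and 23751 to 50373 CPM without it. Of the other marker lists, 3 of 7 immune, 3 of 5 endothelial and 1 of 2 tested adipocyte markers were called lower, the 8 beta cell markers gave 3 higher and 3 lower, and the 7 duct and the 6 stromal markers each gave 1 higher and 1 lower. Over all genes of this comparison 52.1% were called, 25.9% lower and 26.1% higher. In the immune, adipocyte, duct and stromal lists the share called in either direction was not above this. The summed immune level was 811 CPM in multipara untreated replicate 1 and 97.8 to 125 CPM in the other untreated libraries. By group, 1 of the 7 immune markers was called lower in virgin and 5 in multipara. The part of the listed cell types in the members' values was not tested. In whole islets, fewer delta or PP cells and less RNA per cell cannot be told apart. The labels also do not say whether treated and untreated libraries were prepared together, and preparation and treatment cannot be told apart here. Markers of gut endocrine cells, another source of *Pyy*, summed to 0.0630 to 1.75 CPM in the 11 libraries.

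**Figure D2:**
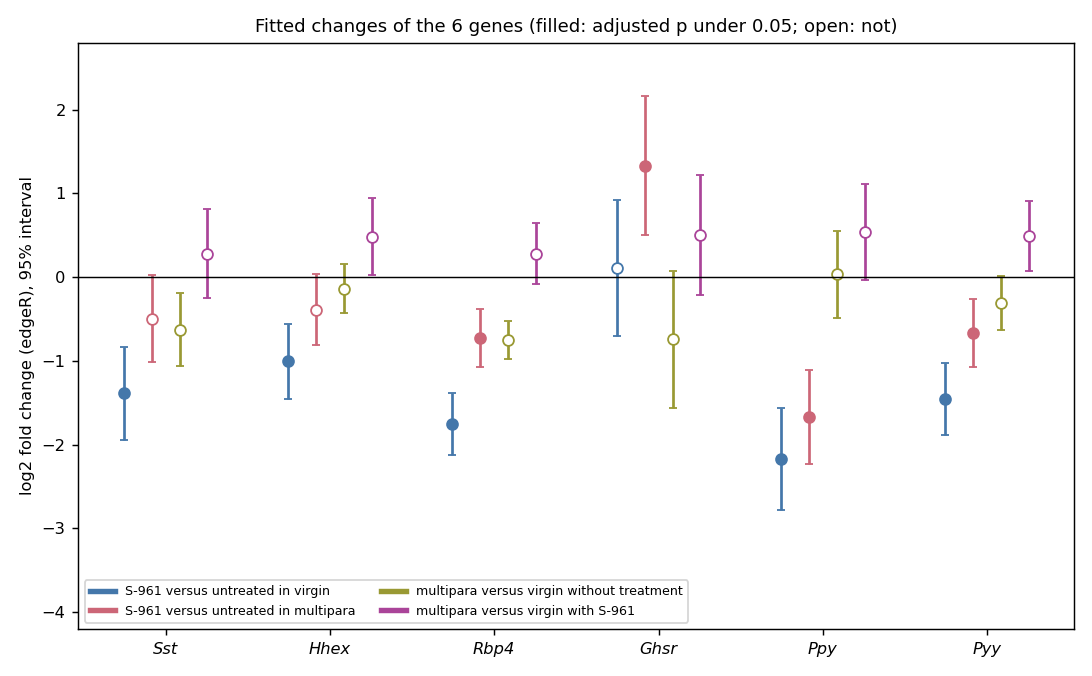
Fitted log2 fold change of each gene in 4 comparisons, with 95% intervals from edgeR. Filled points have an adjusted p-value under 0.05 across all genes. All filled points of *Sst*, *Hhex*, *Rbp4*, *Ppy* and *Pyy* lie below 0 and belong to the S-961 comparisons, and none of the multipara against virgin points is filled.

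Between multipara and virgin islets that had S-961, the 6 genes were on average higher in the libraries labelled multipara, by 1.21-fold (*Sst*) to 1.46-fold (*Ppy*), but none passed the adjusted threshold. No gene of the 16784 tested was called by edgeR (0%), and DESeq2 called 369 genes of the table but no member. In edgeR 1630 genes (9.71%) had an unadjusted p-value under 0.05, and 2 of the 6 members, *Pyy* and *Hhex*, were among them.

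*Pyy* was the member whose groups did not overlap, with all 4 multipara libraries above all 3 virgin libraries. Of all genes tested, 8.72% did not overlap and 5.41% did so in this direction. Its log2 fold change was 0.49 with a 95% interval of 0.07 to 0.91 (adjusted p = 0.442, edgeR). *Hhex* gave 0.49 with an interval of 0.03 to 0.94 (adjusted p = 0.483). *Ppy* gave 0.54 with an interval of -0.03 to 1.12 (adjusted p = 0.538). For the other members, the log2 fold changes were 0.28 for *Sst*, 0.28 for *Rbp4* and 0.50 for *Ghsr*, with adjusted p-values of 0.742, 0.616 and 0.650. The median over all genes was 0.00. For every member but *Pyy*, multipara replicate 4 was the lowest of its group and lay within the virgin range. Without that library the log2 fold changes were 0.62 for *Hhex*, 0.71 for *Ppy*, 0.56 for *Pyy* and 0.40 for *Sst*, and the smallest adjusted p-value among the 6 was 0.101, while 525 genes of the table were called. Other libraries moved single genes as much, with *Sst* at 0.12 without multipara replicate 2 and *Ghsr* at 0.23 without virgin replicate 3, and no member was called with any single library left out. The summed acinar level was also higher in multipara replicates 1, 2 and 3 (6785 to 10059 CPM) than in the virgin libraries and replicate 4 (1550 to 5690 CPM), and with it as a covariate the log2 fold changes were 0.15 (*Ghsr*) to 0.49 (*Pyy*), none of them called.

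Without treatment the direction was the opposite for 5 of the 6 genes. *Sst*, *Hhex*, *Rbp4*, *Ghsr* and *Pyy* were lower in both libraries labelled multipara than in both labelled virgin, and *Ppy* overlapped. This pattern was common in a comparison of 2 against 2, since 37.7% of all genes did not overlap and 19.5% were lower without overlap. No gene of 15812 was called by edgeR (0%), 889 (5.62%) had an unadjusted p-value under 0.05, and 56 were called by DESeq2.

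*Rbp4* had the largest difference relative to its error, with a log2 fold change of -0.75 and a 95% interval of -0.97 to -0.52 (adjusted p = 0.719, edgeR). *Sst* was at -0.63 with an interval of -1.06 to -0.19. Both had an unadjusted p-value under 0.05 in edgeR, and both were the members that DESeq2 called, with adjusted p-values of 3.95e-13 for *Rbp4* and 0.000469 for *Sst*. *Ghsr* was at -0.74, *Pyy* at -0.31, *Hhex* at -0.14 and *Ppy* at 0.03, and their intervals all included 0. Replicate 1 of the multipara libraries stood apart in *Lyz2*. Without it *Rbp4* was at -0.70 (adjusted p = 0.0456) and *Sst* at -0.53 (adjusted p = 0.182). Without multipara replicate 2 both were called, *Rbp4* at -0.82 (adjusted p = 0.00305) and *Sst* at -0.75 (adjusted p = 0.0156), and 1738 genes of the table were called. Each of these fits holds 1 multipara library, which is assumed to vary as the virgin pair does.

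The difference between these effects was tested as an interaction of parity and S-961. All 6 genes had a positive value, from 0.50 for *Ppy* to 1.22 for *Ghsr*, which means that the multipara effect was higher with S-961 than without it, but no gene of the table passed the adjusted threshold (0% of 17996). At an unadjusted p-value under 0.05, edgeR gave 1179 genes (6.55%), among them *Rbp4*, *Pyy*, *Sst* and *Ghsr*. *Rbp4* was at 1.02 with a 95% interval of 0.50 to 1.54 (adjusted p = 0.409) and was the member called by DESeq2 (adjusted p = 0.0254), which called 79 genes in all. *Pyy* was at 0.79 with an interval of 0.19 to 1.38 (adjusted p = 0.704). Without multipara S-961 replicate 4 the values were 1.08 for *Rbp4*, 0.85 for *Pyy* and 1.30 for *Ghsr*, and without multipara untreated replicate 1 they were 0.95, 0.73 and 1.02, with no member called.

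The ratio of 2 genes within a library does not depend on how libraries are scaled, and 6 ratios of counts were compared by exact two-sided permutation tests, adjusted over 12 tests. With S-961 the balance between the members shifted. *Ppy* was lower relative to *Sst* and relative to *Pyy*, and *Ghsr* was higher relative to *Sst*. With 7 libraries against 4, the smallest p-value that these tests can give is 0.00303.

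There were 0.345 and 0.285 *Ghsr* counts per 1000 *Sst* counts in the virgin and 0.271 and 0.305 in the multipara untreated libraries. The S-961 libraries had 0.424 to 1.22 in virgin and 0.673 to 1.45 in multipara. All 7 were above all 4, with a mean 3.17-fold higher (exact permutation p = 0.00303, adjusted p = 0.0182). The *Ghsr* counts behind this ratio were as low as 19, and virgin S-961 replicate 3 was the nearest to the untreated libraries. Without that library the ratio was higher by 1.86 on the log2 scale, and over all single libraries left out it ran from 1.56 to 1.86.

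There were 0.259 to 0.381 *Pyy* counts for each *Ppy* count in the untreated libraries and 0.424 to 0.731 in the S-961 libraries. No value overlapped, and the difference was 1.83-fold (exact permutation p = 0.00303, adjusted p = 0.0182). The highest ratio belonged to multipara S-961 replicate 4 and the lowest treated one to multipara S-961 replicate 3.

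*Ppy* relative to *Sst* was at 1.57 and 0.971 in virgin and 2.16 and 1.80 in multipara without treatment, and at 0.617 to 1.09 with S-961. Only multipara S-961 replicate 3 reached the lowest untreated value. The log2 difference was -0.96 (exact permutation p = 0.00606, adjusted p = 0.0182). *Rbp4* counts per 1000 *Sst* counts ran from 38.5 to 46.4 without and from 31.3 to 39.8 with S-961, a log2 difference of -0.29 with the same p-values, and multipara S-961 replicate 4 was the treated library inside the untreated range. *Hhex* relative to *Sst* differed by 0.26 (exact permutation p = 0.155), and no difference was shown.

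*Sst* relative to the summed insulin genes was higher by 0.82 on the log2 scale with S-961 (exact permutation p = 0.0182, adjusted p = 0.0436). This came mainly from the multipara libraries, where the difference was 1.43, against 0.13 in virgin. Per 1000 insulin counts there were 11.7 and 13.4 *Sst* counts in virgin and 7.75 and 6.83 in multipara without treatment. With S-961 there were 13.5 to 13.8 in virgin and 13.2 to 24.3 in multipara, where replicate 4 was the lowest and lay just under the virgin range. Without multipara S-961 replicate 4 the log2 differences between treated and untreated libraries were 0.80 for *Pyy* to *Ppy*, -0.95 for *Ppy* to *Sst*, -0.32 for *Rbp4* to *Sst* and 1.62 for *Ghsr* to *Sst*, and without multipara untreated replicate 1 they were 0.79, -0.81, -0.29 and 1.61. Between multipara and virgin with S-961, no difference was shown for any of the 6 ratios (exact permutation p from 0.143 to 0.857). With 4 libraries against 3, the smallest p-value that this test can give is 0.0286. The *Sst* to insulin ratio was higher in multipara by 0.51 on the log2 scale, and by 0.70 without multipara S-961 replicate 4.

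**Figure D3:**
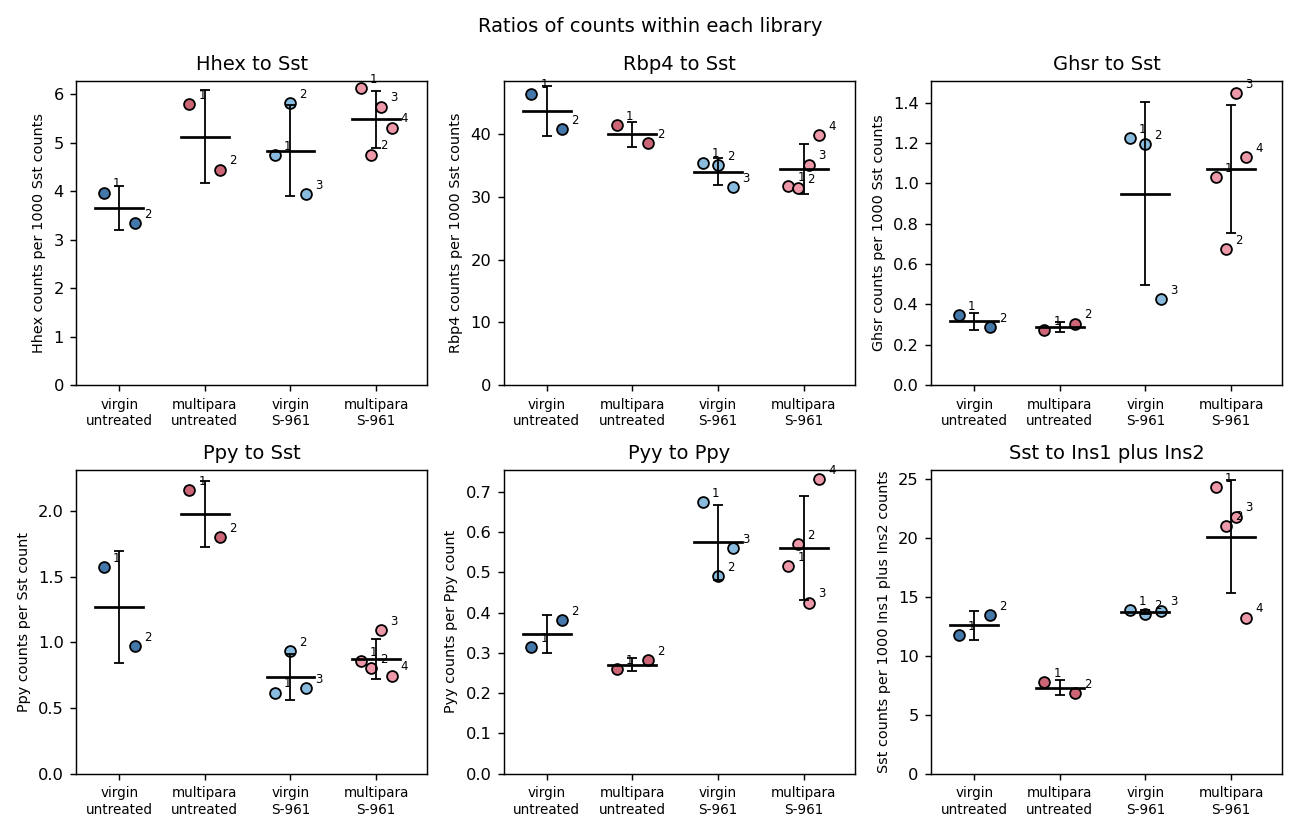
Ratio of counts of 2 genes within each library, in the units given on each linear axis, for the 4 groups. Points are libraries with their replicate number, lines are means and error bars are SD. The S-961 libraries lie above all untreated ones for *Ghsr* to *Sst* and for *Pyy* to *Ppy*.

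Within the 7 S-961 libraries, which all share the treatment and the joint scaling, *Sst* and *Rbp4* were the members that varied together most closely. Pearson's r of log2 CPM was 0.96 and Spearman's rho 0.96 (exact permutation p = 0.000397 and 0.00278, adjusted over 15 pairs 0.00595 and 0.0417). Without the libraries farthest from the median of *Sst*, 2 of the 7, r was 0.86. The 7 libraries hold both parity labels, and any difference between these labels is part of r. Permutation tests of the 15 pairs were also run over all 11 libraries, with 100000 random permutations. Their results are not used here, since the difference between treated and untreated libraries is part of them.

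*Rbp4* and *Pyy* followed with r = 0.95 and rho = 0.82 (exact permutation p = 0.00317 and 0.0341, adjusted 0.0228 and 0.128), and r was 0.87 without the libraries farthest from the median. *Hhex* and *Ppy* had r = 0.91 and rho = 0.89 (exact permutation p = 0.00456 and 0.0123, adjusted 0.0228 and 0.0923), and r was 0.99 without those libraries. For *Sst* and *Pyy*, r was 0.86 and rho 0.86 (exact permutation p = 0.00952 and 0.0238, adjusted 0.0357 and 0.119). For *Hhex* and *Pyy*, r was 0.86 and rho 0.71 (exact permutation p = 0.0139 and 0.0881, adjusted 0.0417 and 0.183). Without the farthest libraries r was 0.47 and 0.66 for these pairs. *Ppy* and *Pyy*, the neighbours on chromosome 11, had r = 0.80 and rho = 0.68 (exact permutation p = 0.0298 and 0.110, adjusted 0.0744 and 0.183), and r fell to 0.47 without the farthest libraries, on which the relation rested. Over the 7 libraries r of *Pyy* was thus higher with the delta cell genes *Rbp4*, *Sst* and *Hhex* than with *Ppy*. Whether these r values differ was not tested. *Ghsr* followed no other member closely, with r from -0.13 to 0.42 over its 5 pairs (exact permutation p from 0.376 to 0.893).

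**Figure D4:**
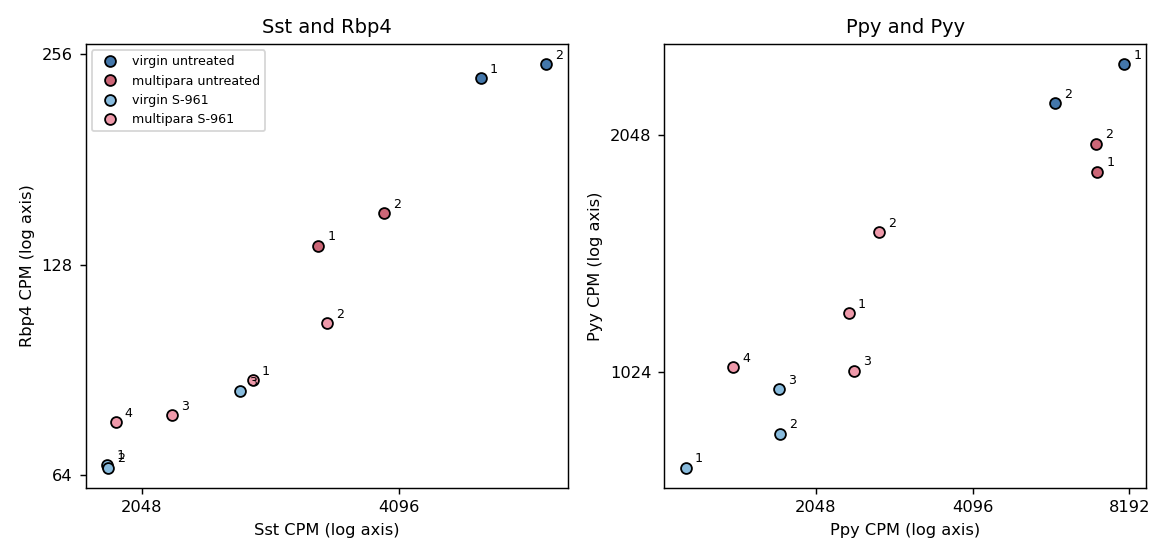
*Rbp4* against *Sst* and *Pyy* against *Ppy* in the 11 libraries, as CPM on log axes, with the replicate number beside each point and colours for the 4 groups. The 7 S-961 libraries lie below the 4 untreated libraries in *Rbp4*, *Ppy* and *Pyy*. In *Sst*, multipara S-961 replicate 2 lies above multipara untreated replicate 1. Within the S-961 libraries *Rbp4* follows *Sst* more closely (r = 0.96) than *Pyy* follows *Ppy* (r = 0.80).

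The genes with the pattern most like each member were ranked by r of log2 CPM over the 11 libraries among 11282 genes, as a description. For *Sst* they were *Sgce* (r = 0.98), *Uchl1* (0.97) and *Ogfod3* (0.97), and for *Rbp4* they included *Tuft1* (0.98) and *Gcg* (0.97). For *Pyy* they were *Folr1* (0.99), *Snx24* (0.98) and *Eci2* (0.97), and for *Ppy* they were *Slc31a2*, *Zfp821* and *Mvk* (0.98 each). These values span treated and untreated libraries, the difference between those is part of them, and they carry no test. After the group means were taken out, r was 0.97 for *Sst* and *Sgce* and 0.95 for *Pyy* and *Folr1*, but 0.68 for *Rbp4* and *Tuft1* and 0.675 for *Rbp4* and *Gcg*. *Hhex* was most like *Rnaseh2a* (0.98), *Xrcc1* (0.97) and *Fxyd3* (0.96), and *Ghsr* was most like *Fat1* (0.97), *Wnk3* (0.96) and *Myh10* (0.95).

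The receptors of somatostatin were measured alongside the hormone. In the averaged S-961 comparison, to which the counts for this and the next lists refer, 52.1% of all genes were called, 25.9% lower and 26.1% higher. Of 5 receptor genes, 3 were tested and all 3 were called, 2 lower and 1 higher. *Sstr3* was the most abundant, with 459 to 617 CPM in the untreated and 165 to 206 CPM in the S-961 libraries, and it fell by 1.58 on the log2 scale (SE 0.10, adjusted p = 2.92e-06). *Sstr2*, the main receptor of alpha cells, was at 2.50 to 4.31 CPM without and 0.896 to 3.04 CPM with S-961 (log2 fold change -0.85, adjusted p = 0.0300), a call lost in 11 of 19 alternative fits. *Sstr1* was called higher at 1.52 (adjusted p = 0.0259) from 0.0630 to 0.497 CPM without S-961, that is, from 1 to 13 counts, and this call was lost in 4 of 19 alternative fits. *Sstr4* and *Sstr5* did not pass the filter, with at most 7 counts in a library.

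In the neuropeptide Y family, 2 of 6 listed genes were tested and both were called lower. *Npy*, the relative of *Ppy* and *Pyy* that is best known from neurons, was at 13.8 to 31.3 CPM without and 7.21 to 16.9 CPM with S-961 (log2 fold change -1.13, adjusted p = 0.00677). Its receptor gene *Npy1r* was at 0.946 to 1.52 CPM without and 0.121 to 1.03 CPM with S-961 (log2 fold change -2.19, adjusted p = 0.00161). *Npy4r*, which encodes the receptor that pancreatic polypeptide prefers, had at most 5 counts in a library.

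Of 4 listed genes around the ghrelin receptor, 2 were tested and both were called lower. The ghrelin gene *Ghrl* was at 6.30 to 14.4 CPM without and 0.896 to 2.75 CPM with S-961 (log2 fold change -2.56, SE 0.29, adjusted p = 4.86e-05), and *Mrap2*, which encodes an accessory protein of the ghrelin receptor, was at -2.11 (adjusted p = 0.000440). This was opposite to *Ghsr*, whose direction was higher. The *Mrap2* counts ran from 5 to 55.

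Among 8 genes of retinol transport, 7 were tested and 2 were called, both lower, a share not above that over all genes. *Ttr*, which encodes transthyretin, the partner of RBP4 in blood and also an alpha cell marker, was at 2501 to 6787 CPM without and 969 to 2654 CPM with S-961, and it fell by 1.26 (SE 0.24, adjusted p = 0.00119). *Rbp7*, which encodes a cellular retinol-binding protein, fell by 2.82 (SE 0.28, adjusted p = 2.34e-05). The median of the 7 was -0.29, against -0.01 over all genes.

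Of 5 receptors and inputs of delta cells, 2 were called lower and none higher. *Ucn3*, the beta cell peptide that stimulates delta cells, was at 689 to 812 CPM without and 278 to 406 CPM with S-961, and it fell by 1.03 (SE 0.13, adjusted p = 7.24e-05). *Ffar4*, which encodes a fatty acid receptor present on delta cells, was at -0.85 (adjusted p = 0.00165). *Crhr2*, a receptor for urocortin 3, was called in virgin at -1.49 (adjusted p = 0.0207), a call lost in 5 of 14 alternative fits, and not on average (-0.64, adjusted p = 0.0947).

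Of 7 transcription factors that delta or PP cells share with other islet cells, 6 were tested, and 2 were called higher and 1 lower. *Neurod1* was at 62.6 to 85.7 CPM without and 155 to 196 CPM with S-961, and it rose by 1.32 (SE 0.12, adjusted p = 1.16e-05). *Isl1* was called higher at 0.36 (adjusted p = 0.0490), and *Pdx1* was called lower at -0.32 (adjusted p = 0.0328). The calls of *Isl1* and *Pdx1* were less firm, each being lost in 10 of 19 alternative fits, and with total count scaling *Pdx1* turned to 0.22. In the multipara against virgin comparisons and in the interaction, none of these related genes was called.

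**Figure D5:**
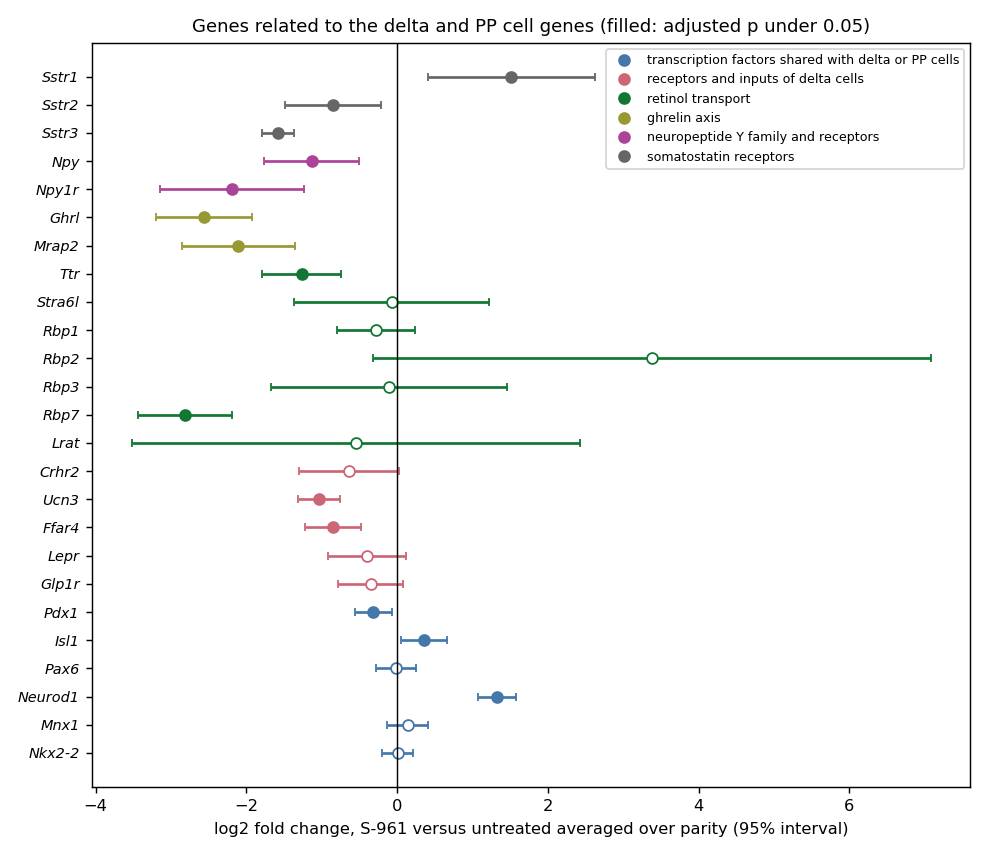
Averaged log2 fold change of S-961 against untreated for the related genes that passed the filter, with 95% intervals from edgeR, coloured by list. Filled points have an adjusted p-value under 0.05. Of the filled points, *Sstr3*, *Npy*, *Npy1r*, *Ghrl*, *Mrap2*, *Ttr*, *Rbp7* and *Ucn3* lie below -1, and *Neurod1* and *Sstr1* lie above 1.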

How the data were processed

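RNA of isolated mouse islets was sequenced from stranded poly(A) libraries. The authors deposited 1 table per library of expected counts per gene, without normalization, and their processing notes name STAR, RSEM, mm10 and GRCm38. Of the 55536 genes, 55450 matched GENCODE M21. Expected counts were rounded, which altered 4449 to 5162 genes in each library.

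Genes were tested with the quasi-likelihood F-test of edgeR 4.0.16 (R 4.3.3) after TMM and filterByExpr (minimum count 10, minimum total 15), with Benjamini-Hochberg adjustment over all genes tested, at 0.05. Comparisons of multipara with virgin were fitted on the libraries of 1 treatment and the others on all 11. DESeq2 1.42.0 was an alternative, beside other scalings, filters, covariates, a replicate block and libraries left out. Log2 CPM used a prior count of 2. Ratios, and correlations within the S-961 libraries, were tested by exact permutation with numpy 2.4.6 and scipy 1.17.1. Fits were tested on simulated counts, in which, of 200 genes changed 4-fold, 159 were recovered for multipara against virgin with S-961, 119 without treatment, 129 for S-961 in virgin, 135 in multipara, 163 on average and 107 for the interaction. False calls were 12, 9, 5, 6, 9 and 6 in the same order. All other genes were left unchanged and smaller changes were not simulated, so recovery at smaller folds is not known.

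The 6 genes, the related gene lists and the marker lists were chosen with earlier results of these data known. Named are the 6 members, receptor genes of the lists that passed the filter, list genes with an adjusted p-value under 0.05 and, per member, the 3 genes of highest r with a mean log2 CPM of at least 2. Genes of the lists for the state of a library (*Lrrc55*, *Mki67*) were set beside the results, and *Lyz2* and *Ptf1a* were named after their values were seen. A few genes that these rules or lists would name are not reported here. Sequences came from GENCODE transcripts and RefSeq promoters. Within every group the libraries differed by more than sampling noise (chi-square per gene from 8.89 to 116), which does not say whether they were separate animals.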

Additional observations from a re-analysis of the deposited data

How the results depend on the processing

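The number of members called kept within 1.5 times its value in 85 of 96 alternatives. This includes counts of 0 that stayed 0, in 16 of 16 alternatives for multipara against virgin with S-961. The same held in 9 of 13 without treatment and 18 of 19 for the interaction. A fall from 6 to 5 is also included. For multipara against virgin without treatment (0 called), DESeq2 called 2 and leaving out single libraries gave 0 to 2. For S-961 in multipara (4 called), total count scaling called 2 and leaving out single libraries gave 2 to 4, lowest without multipara untreated replicate 1. The acinar covariate left 0 called in virgin (from 5), in multipara (from 4) and on average (from 6). DESeq2 called 1 member in the interaction (from 0). An alternative chosen after seeing the data left out multipara S-961 replicate 4 and multipara untreated replicate 1 together, and called 1 without treatment and 2 for S-961 in multipara. With single libraries left out, S-961 called 5 of the members in virgin and 5 to 6 on average, and no member was called in the interaction or between multipara and virgin with S-961. The cause was not tested.

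Single genes turned as follows. With total count scaling, *Ppy* without treatment was at -0.0138, *Sst* and *Hhex* in multipara at 0.0857 and 0.18, and *Pdx1* on average at 0.22. With the acinar covariate, *Ghsr* was at -1.86 in virgin, -0.70 in multipara and -1.28 on average, and *Npy* at 0.18 in virgin and 0.45 on average. With single libraries left out, *Ppy* without treatment ran from -0.18 (without virgin untreated replicate 2) to 0.264, and *Ghsr* in virgin from -0.0523 (without virgin S-961 replicate 1) to 0.371.

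For S-961 against untreated, the *Hhex* to *Sst* ratio ran from 0.14 to 0.41 with single libraries left out and reached p = 0.0333 in the exact permutation test without multipara untreated replicate 1. The *Sst* to insulin ratio was 0.13 within virgin and 1.43 within multipara. Between multipara and virgin with S-961, with single libraries left out, *Rbp4* to *Sst* ran from -0.0573 to 0.0585, *Ghsr* to *Sst* from -0.23 to 0.54, and *Pyy* to *Ppy* from -0.19 to 0.0712.

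Replicate numbers were shared by groups, and whether they pair the samples was not settled. With S-961 the correlation of deviations was 0.09, 0.24 and 0.28 for the 3 shared numbers, and all 6 of these libraries correlated best with their own number. Between S-961 and untreated libraries, 2 of 4 did so in virgin and 0 of 4 in multipara. The main fits did not use the numbers. With the replicate block, 0 members were called between multipara and virgin with S-961, 0 without treatment, 5 for S-961 in virgin, 3 in multipara, 5 on average and 0 in the interaction, and 342 genes of the table were called between multipara and virgin with S-961.

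Counts over all genes moved more. With S-961, multipara against virgin went from 0 to 369 with DESeq2, 525 without multipara S-961 replicate 4 and 1 without virgin S-961 replicate 3. Without treatment it went from 0 to 3 with no filter, 56 with DESeq2, 53 without multipara untreated replicate 1 and 1738 without replicate 2. The interaction went from 0 to 4 with no filter, 79 with DESeq2, 34 with the block, 45 without multipara S-961 replicate 4, 32 without multipara untreated replicate 2 and 50 without both libraries named above. S-961 in virgin went from 6562 to 3503 and 3053 without virgin untreated replicates 1 and 2, and in multipara from 6768 to 4428 on its own libraries, 3618 without multipara untreated replicate 1 and 3632 without both. The acinar covariate gave 0, 0 and 2. Among the 6 genes, the depth limited *Ghsr* most, with 19 to 125 counts in a library.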

Other observations

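Within the 4 multipara S-961 libraries, no level of the 6 genes and none of the 6 ratios held a library that stood apart by the gap of the extreme library over the range of the group. The largest value was 0.737, for *Ppy*, where the critical value is 0.829, and the library at the end was replicate 4 with 1422 CPM. In the *Sst* to insulin ratio the same library had a value of 0.706. With 4 libraries this rule flags only a gap above 0.829 of the range, so it cannot show that no library differed.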
